A study of Mus musculus with 7 samples.

Results

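The mitochondrial chromosome of the mouse carries 37 genes, and all 37 were found in the gene count table as the rows whose gene name starts with mt-, out of 54532 rows in all. They comprise 13 protein-coding genes, 2 ribosomal RNA genes and 22 transfer RNA genes. Retinas were taken on day 28 of an infusion of Ang II, the hormone angiotensin II, which raises blood pressure, in 4 libraries and of saline in 3 libraries. The series text gives the mice of both groups as ApoE-/-, while the labels of every library give the genotype as WT. Apoe itself was counted 253 to 406 times in each Ang II library and 150 to 304 times in each saline library. Age, sex, the dose of Ang II and the number of animals behind each library are not known from the sources used here, so p-values measure the spread between these libraries, which may be technical.

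Mitochondria keep a small circular genome whose 13 proteins all enter the respiratory chain or the ATP synthase, where they join many subunits made from nuclear genes. Both strands are transcribed into long precursors, and most of the transfer RNAs sit between the longer genes, so that cutting out the transfer RNAs releases the messenger and ribosomal RNAs. Most genes lie on the heavy strand, while mt-Nd6 and 8 transfer RNA genes lie on the light strand. In the retina, mitochondria are crowded into the inner segments of photoreceptors, which use much energy to keep the dark current and to renew their outer segments.

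Library totals ran from 14655431 counts (saline replicate 2) to 17563493 counts (Ang II replicate 1). Rod markers took 6.10% to 7.15% of counts in Ang II and 7.004% to 7.52% in saline, with none of the 12 at 0 in all libraries. All 12 had a log2 fold change below 0 (median -0.21). In whole tissue, fewer cells of a type and less RNA per cell cannot be told apart. Pigment epithelium markers took 0.117% to 0.161% in Ang II and 0.0490% to 0.110% in saline, and none of the 11 was at 0 in all libraries. Skeletal muscle markers reached 0.0404% in Ang II replicate 3 and at most 0.00230% elsewhere, and lens markers reached 0.200% in Ang II replicate 2 and at most 0.0406% elsewhere. The part of these neighbouring tissues in the values below was not tested.

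Some mitochondrial sequences were shown first because they bear on how the counts can be read. A stretch of the mitochondrial chromosome from inside mt-Co1 (MT:6381-11042, mm10) has a near-copy on chromosome 1 (chr1:24611535-24616197), annotated as 7 genes on the reverse strand, which follow each other in the order of the mitochondrial genes. No copy is annotated over mt-Atp8 or the transfer RNA genes of the stretch, apart from bases shared with a neighbouring coding gene. These genes are placed in the stretch by position. The stretch spans 4662 bases in the mitochondrion and 4663 on chromosome 1. Over the aligned bases, Gm28661 was identical to mt-Co2 at 681 of 681 positions, Gm10925 to mt-Atp6 at 678 of 678, Gm28437 to mt-Co3 at 783 of 783 and Gm10222 to mt-Nd4l at 294 of 294. Gm28439 was identical to the first 876 of the 1378 bases of mt-Nd4, and Gm28438 had 1 mismatch to mt-Nd3 in 345 bases. Gm29216 matched the end of mt-Co1, from position 1054 to 1545, with 6 mismatches. The sequences below, from the GENCODE M21 transcripts, show where the match of Gm29216 to mt-Co1 begins, with the mismatching bases in capitals, and the first 60 bases of mt-Co2 and Gm28661, which do not differ, with the start codon in capitals.
mt-Co1: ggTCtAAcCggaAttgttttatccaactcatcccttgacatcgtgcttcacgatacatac
Gm29216: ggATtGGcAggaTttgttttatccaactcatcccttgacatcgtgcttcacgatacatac
mt-Co2: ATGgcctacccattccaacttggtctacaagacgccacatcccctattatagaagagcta
Gm28661: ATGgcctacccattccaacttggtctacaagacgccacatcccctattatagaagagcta
The 6 mismatches all fall in the first 13 aligned bases of the copy. Counted from the first base of mt-Co1, they are T1056A, C1057T, A1059G, A1060G, C1062A and A1066T, with the base of mt-Co1 first.

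As a share of each library, the 37 genes held 3.36%, 3.25%, 2.96% and 3.07% of the counts in the Ang II libraries, in the order of their replicate numbers. The saline libraries held 3.11%, 3.23% and 3.03% (all lists of values per library keep this order). The groups overlapped, with means of 3.16% ± 0.183 (n = 4, SD) and 3.12% ± 0.102 (n = 3, SD). The difference of 0.0384 percentage points was smaller than the SD of either group. Counting error was smaller still, with a Wilson 95% interval of 3.356% to 3.373% for Ang II replicate 1. That interval takes in counting error and nothing else, since the labels name no molecular identifiers that would mark duplicate reads.

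By class, the coding genes held 2.99% ± 0.206 (n = 4, SD) of the library in Ang II and 2.96% ± 0.100 (n = 3, SD) in saline. The ribosomal RNA genes held 0.163% ± 0.0259 and 0.160% ± 0.0137, and Ang II replicate 3 had the highest value, at 0.196%. The transfer RNA genes held 0.00832%, 0.00774%, 0.00967% and 0.00798% in the Ang II libraries, while their saline values were 0.00760%, 0.00616% and 0.00690%. Of the 3 classes this was the one whose groups did not overlap on plain library totals. The gap between the lowest Ang II library and the highest saline library was narrow. It did not hold on the scaled library sizes used for the tests. There Ang II replicate 2 (scaling factor 1.001) fell below saline replicate 1 (scaling factor 0.969), so the groups overlapped. As a share of the mitochondrial counts alone, the transfer RNA genes overlapped, at 0.238% to 0.327% in Ang II and 0.191% to 0.245% in saline.

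**Figure D1:**
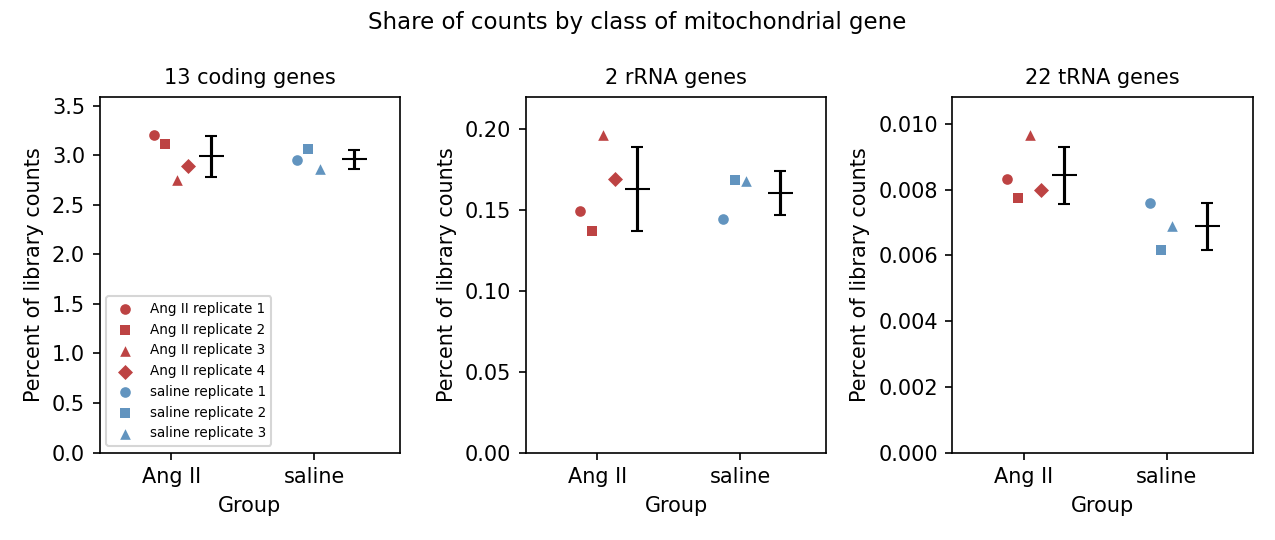
Percent of library counts (y axis, from 0) held by the coding, ribosomal RNA and transfer RNA genes in each library, by group (x axis), with the group mean and SD as black bars. The coding and ribosomal RNA shares overlap between groups, while the 4 Ang II libraries (0.00774% to 0.00967%) sit just above the 3 saline libraries (0.00616% to 0.00760%) for the transfer RNA genes. Shares are of plain library totals, and on scaled library sizes the transfer RNA groups overlap.

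Of the 37 genes, 28 passed the filter on low counts and were tested across all genes with edgeR's quasi-likelihood test. None passed at an adjusted p under 0.05 (0 of 28), and none of the 17078 genes tested did (0%). DESeq2 called 0 of 31 members (0.152% of all genes) and limma-voom 0 of 28 (0.831%). The fit with a replicate block called 0 of 28 (0.337% of all genes), as did the fit without saline replicate 3 (0.667%). At an unadjusted p under 0.05, 2 of 28 members were found, both higher in Ang II, beside 4.62% of all tested genes (2.9% of all genes in the higher direction). The groups did not overlap for the same 2 members, mt-Tl1 and mt-Te, beside 5.91% of all genes in either direction and 3.18% in the higher direction. The log2 fold changes had a median of 0.01, with 16 above 0 and 12 below, and the median over all tested genes was -0.00 with 48.9% above 0. The 9 genes that were not tested are mt-Atp8 and 8 transfer RNA genes, none of which exceeded 14 counts in any library.

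**Figure D2:**
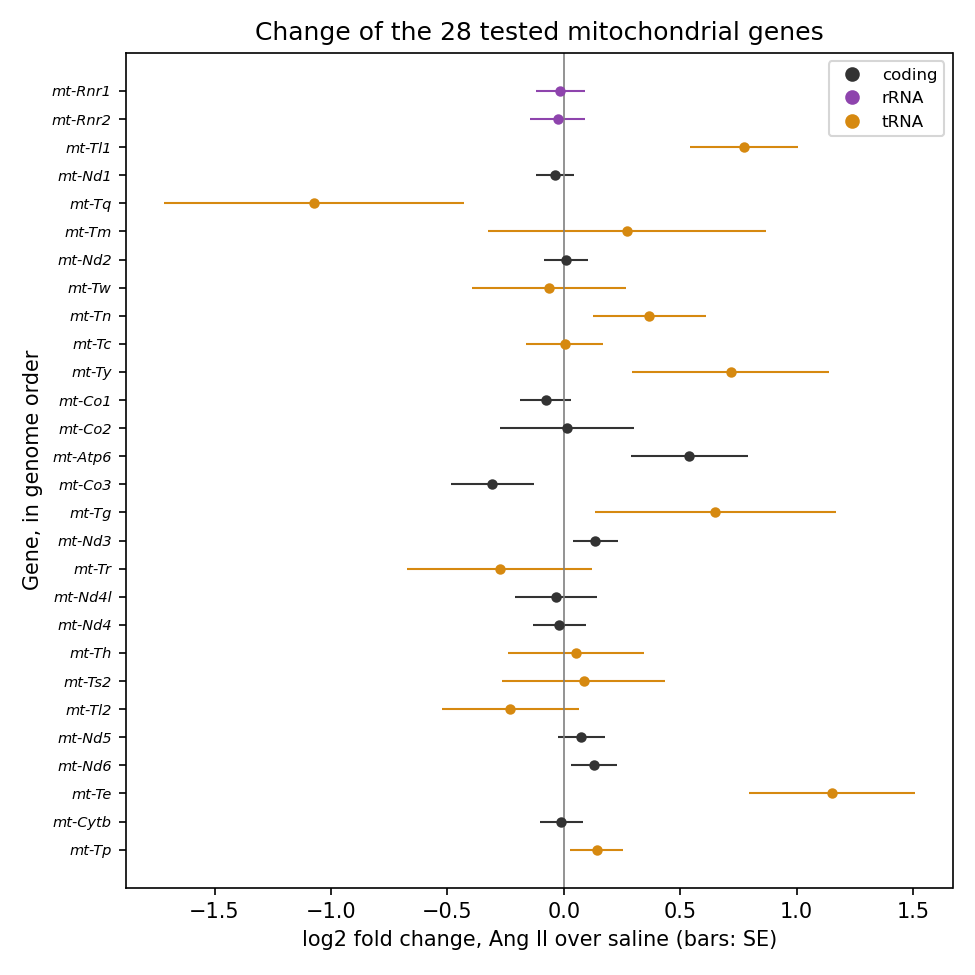
Log2 fold change of Ang II over saline (x axis, bars are SE) for the 28 tested genes in genome order (y axis), coloured by class. The coding and ribosomal RNA genes lie between -0.31 and 0.54, while the transfer RNA genes spread from -1.07 for mt-Tq to 1.15 for mt-Te. mt-Tq had 1 to 12 counts per library and an SE of 0.64.

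Complex I takes electrons from NADH, pumps protons across the inner membrane and holds the largest group of mitochondrial subunits, mt-Nd1 to mt-Nd6 and mt-Nd4l. These 7 genes held 1.16% ± 0.0351 (n = 4, SD) of the library in Ang II and 1.116% ± 0.0860 (n = 3, SD) in saline. mt-Nd1, a membrane subunit next to the quinone site (MT:2751-3707), was at 4594, 4111, 4375 and 4081 CPM (read counts relative to the scaled library size) in the Ang II libraries. Its saline values were 4361, 4543 and 4302 CPM. The groups overlapped, with a log2 fold change of -0.04 ± 0.08 (SE) and an edgeR adjusted p of 0.985. Its SE of 0.08 was the smallest among the members.

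mt-Nd2 was at 1824 ± 120 CPM under Ang II (n = 4, SD) and 1813 ± 179 CPM under saline (n = 3, SD), and its log2 fold change was 0.01 ± 0.09. mt-Nd4 was at 1951 ± 175 against 1977 ± 356 CPM, with its log2 fold change at -0.02 ± 0.11. mt-Nd5 was at 2529 ± 206 against 2401 ± 280 CPM, with its log2 fold change at 0.07 ± 0.10. These 3 genes encode the pumping subunits of the membrane arm, and none separated the groups.

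mt-Nd6, the single coding gene of the light strand (MT:13552-14070), was at 813, 801, 846 and 812 CPM with Ang II, while saline gave 731, 869 and 645 CPM. The Ang II libraries lay close together within the wider range of the saline ones, and the log2 fold change was 0.13 ± 0.10 (edgeR adjusted p = 0.982). That value was 0.0393 without saline replicate 3 and 0.25 without saline replicate 2. The library preparation, as the labels describe it, did not mark strand, so reads of mt-Nd6 and of heavy-strand RNA running antisense to it are not separable here, and the same holds for the light-strand transfer RNA genes. Per length, mt-Nd5 over mt-Nd6 was between 0.818 and 0.996 in the 7 libraries.

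Complex III has 1 mitochondrial subunit, cytochrome b, which carries the haems that pass electrons across the membrane. Its gene mt-Cytb (MT:14145-15288) was at 7258, 6531, 5775 and 6131 CPM with Ang II, and with saline it reached 6873, 6199 and 6344 CPM. Both the highest and the lowest value were in Ang II, and the log2 fold change was -0.01 ± 0.09 (edgeR adjusted p = 0.996).

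Complex IV passes electrons to oxygen, and its catalytic core is mt-Co1, mt-Co2 and mt-Co3. mt-Co1 (MT:5328-6872) was the most counted member. It was at 12772, 12954, 9175 and 11105 CPM with Ang II, compared with 12148, 12629 and 11644 CPM for saline. Ang II replicate 3 lay below the other 6 libraries, and the log2 fold change was -0.08 ± 0.11 (edgeR adjusted p = 0.983). Without that library the log2 fold change was 0.02, on the other side of 0. The same library had the highest level of mt-Rnr2, the large ribosomal RNA, at 1525 CPM against 1057 to 1385 CPM elsewhere. The ratio of mt-Co1 to mt-Rnr2 counts was 6.02 in Ang II replicate 3 and 8.87 to 12.3 in the other 6 libraries. Skeletal muscle markers were highest in this library too, as given above.

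The 2 ribosomal RNA genes, which form the core of the mitochondrial ribosome, did not separate the groups. mt-Rnr1, the small ribosomal RNA, was at 365 ± 39.2 CPM under Ang II (n = 4, SD) and 369 ± 40.4 CPM under saline (n = 3, SD), and its log2 fold change was -0.01 ± 0.10. mt-Rnr2 was at 1241 ± 206 and 1265 ± 119 CPM, with its log2 fold change at -0.03 ± 0.12. Per length, mt-Rnr2 over mt-Rnr1 was between 1.83 and 2.41. RNA was drawn from total RNA with poly-T beads, so these levels describe ribosomal RNA that the beads retained.

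Levels per length set the members far apart. In CPM per kb of gene, averaged over the 7 libraries, mt-Co1 was at 7622, mt-Cytb at 5633 and mt-Nd1 at 4533. The ranges over libraries of mt-Co1 (5939 to 8385) and mt-Cytb (5048 to 6345) overlapped, but mt-Co1 was the higher within each library. mt-Nd1 (4264 to 4800) lay below both. Next came mt-Nd2 at 1753, mt-Nd6 at 1519, mt-Nd4 at 1424 and mt-Nd5 at 1356 CPM per kb. The ranges over libraries of neighbours overlapped. Within each library mt-Nd2 was the highest of these genes and mt-Nd6 lay above mt-Nd5, while the place of mt-Nd4 changed between libraries. The ribosomal RNA genes followed, with mt-Rnr2 at 791 and mt-Rnr1 at 384 CPM per kb.

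The 6 coding genes that lie whole within the stretch copied on chromosome 1 stood apart from all the others. Their levels were 123 CPM per kb for mt-Nd3, 112 for mt-Co2, 65.1 for mt-Co3, 58.1 for mt-Atp6, 35.1 for mt-Nd4l and 2.29 for mt-Atp8. The 5 coding genes outside the stretch ran from 1356 to 5633 CPM per kb, so the 2 sets did not overlap in level. Shorter matches of at least 50 bases to annotated transcripts of other genes were found outside the stretch too, over 17.2% of mt-Nd2 and 24.3% of mt-Nd5. In mt-Co1, which had the highest level, such matches covered 74.9% of the gene, mainly through Gm29216 and through Gm13340 on chromosome 2 (56 to 129 counts per library). For mt-Atp8, which had the lowest level, the search gave 0%, since it needed 50 bases within a gene. Of the 204 bases of mt-Atp8, 161 are not shared with mt-Atp6. The shared end lies within the match of Gm10925 but is shorter than 50 bases. Per length, mt-Co1 exceeded mt-Co2 by 46.3 to 109 times and mt-Co3 by 87.3 to 186 times in the 7 libraries, although these 3 genes encode subunits of the same complex. The rules the authors used for reads that match more than 1 place are not known from the sources used here, and their part in these low levels was not tested. The counts of these 6 genes are uncertain for that reason.

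**Figure D3:**
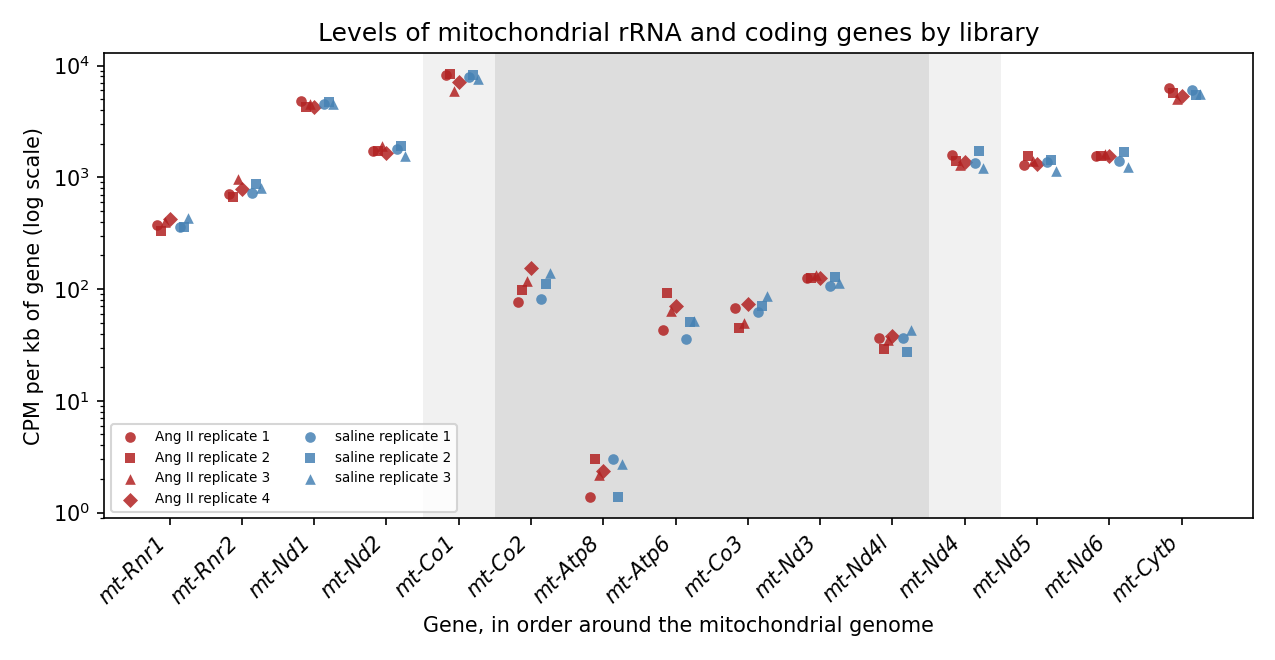
Level of each coding and ribosomal RNA gene in CPM per kb (y axis, log scale) for the 7 libraries, with genes in order around the mitochondrial genome (x axis). Dark grey marks the 6 genes whole within the stretch copied on chromosome 1 (2.29 to 123 CPM per kb on average) and light grey the 2 genes partly within it, mt-Co1 and mt-Nd4.

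For mt-Co2, mt-Atp6 and mt-Co3 the nuclear copies held counts of the same order as the mitochondrial genes. mt-Nd4l and Gm10222 were not far apart either, at 117 to 207 against 58 to 82 counts per library. The copies of these genes are identical to them over the aligned bases, so the counts of the copies are uncertain too. mt-Co2 had 915, 1096, 1285 and 1761 counts in Ang II and 900, 1094 and 1556 in saline, and Gm28661 had 1208, 1012, 1367 and 1417 and 1087, 1145 and 1583. Both were lowest or near it in saline replicate 1 and high in Ang II replicate 4 and saline replicate 3. The log2 fold change was 0.01 ± 0.29 (SE) for mt-Co2 and -0.11 ± 0.14 for Gm28661.

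mt-Atp6, the proton channel subunit of the ATP synthase, had 516, 1021, 683 and 791 counts in Ang II and 392, 497 and 575 in saline. Ang II replicate 1 lay within the saline range, and the other 3 Ang II libraries lay above it. Its log2 fold change of 0.54 ± 0.25 (SE) was the largest among the coding genes and did not pass (edgeR adjusted p = 0.982). It passed in the fit without a filter on low counts (adjusted p = 0.0303), in which 2 of 36 members and 0.32% of 30590 genes were called. Its log2 fold change without Ang II replicate 2 was 0.35. Its partner Gm10925 had 548, 1133, 561 and 743 counts in Ang II and 519, 576 and 661 in saline, so that Ang II replicate 2 was the highest library for both. The log2 fold change of Gm10925 was 0.26 ± 0.28 (adjusted p = 0.982). Summed over the pair, the level was 90.8 ± 30.3 CPM (n = 4, SD) against 69.1 ± 10.9 CPM (n = 3, SD), and the groups overlapped.

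mt-Co3 was at 46.3 ± 10.96 CPM under Ang II (n = 4, SD) and 57.3 ± 9.58 CPM under saline (n = 3, SD), and its log2 fold change was -0.31 ± 0.18, the lowest among the coding genes. It was -0.16 without saline replicate 3, -0.20 without Ang II replicate 2 and -0.43 without Ang II replicate 4. Its partner Gm28437 was at 27.7 ± 6.16 against 27.6 ± 5.98 CPM, with its log2 fold change at 0.01 ± 0.19. mt-Nd3, a complex I subunit, was at 44.5 ± 1.62 against 40.5 ± 3.597 CPM, with its log2 fold change at 0.14 ± 0.10. It held 604 to 778 counts per library, and Gm28438 held 55 to 102. mt-Nd4l, a small membrane subunit of complex I, was at 10.3 ± 1.16 against 10.6 ± 2.24 CPM (-0.03 ± 0.18), and Gm10222 held 58 to 82 counts. mt-Atp8, whose start lies upstream of mt-Atp6 and whose end overlaps it, had 4 to 10 counts per library and was not tested.

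mt-Co1 and mt-Nd4, which lie partly within the stretch, had 145119 to 225223 and 27607 to 38766 counts per library. Their partners Gm29216 and Gm28439 had 237 to 541 and 183 to 262 counts, with log2 fold changes of -0.01 ± 0.28 and -0.06 ± 0.17. None of the 7 nuclear copies passed the test, and none separated the groups.

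**Figure D4:**
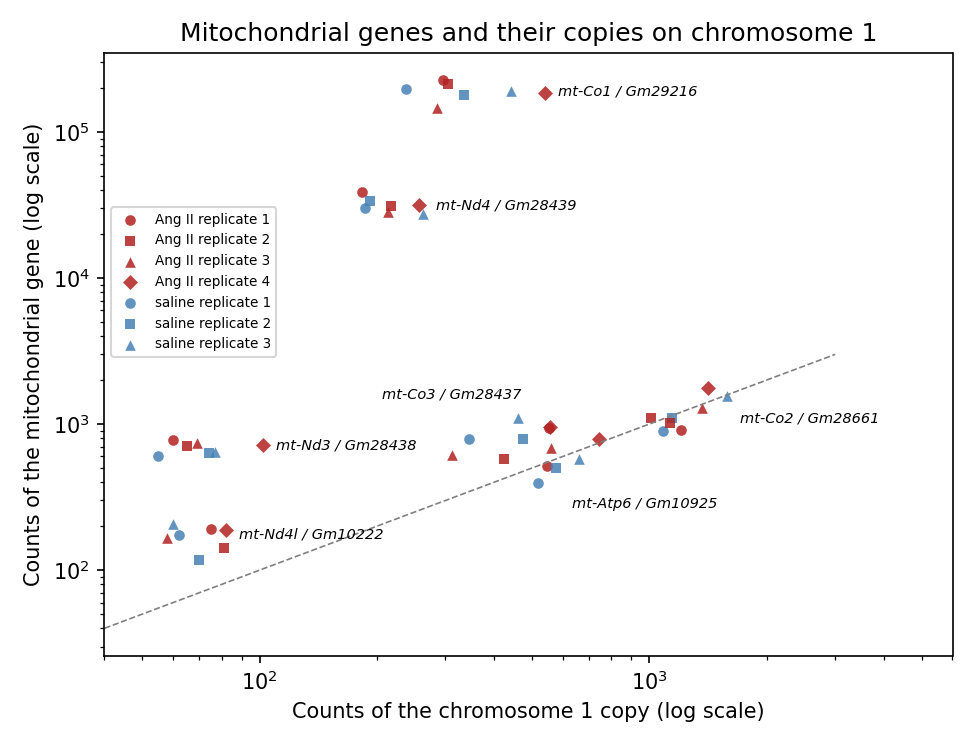
Counts of 7 mitochondrial genes (y axis, log scale) against counts of their near-copies on chromosome 1 (x axis, log scale), 1 point per library and pair, with equal counts on the dashed line. mt-Co2 and mt-Atp6 lie close to the line, while mt-Co1 and mt-Nd4, which have long parts outside the copied stretch, lie far above it. mt-Nd3, which lies whole within the stretch, is also well above the line, at 604 to 778 counts against 55 to 102 for its copy.

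The messages differ at their ends as well. Of the 13 coding genes, 10 end in a full stop codon and 3 end in a lone T, to which the poly-A tail adds the missing bases of the stop codon. These are mt-Co3, mt-Nd4 and mt-Cytb, shown by their last 30 bases with that T in capitals, since poly-A tails are also what the beads select.
mt-Co3: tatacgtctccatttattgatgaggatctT
mt-Nd4: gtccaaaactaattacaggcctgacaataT
mt-Cytb: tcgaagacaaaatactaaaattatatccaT
Their levels were 65.1 CPM per kb for mt-Co3, whose counts are uncertain as said above, 1424 for mt-Nd4 and 5633 for mt-Cytb.

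The 22 transfer RNA genes, of 59 to 75 bases each, held 8816 counts over all libraries. The 5 most counted took 80.6% of these, and 4 of those 5 are among the 8 genes of the light strand. The library fragments were selected at 370 to 420 bp, longer than any transfer RNA gene. The counts of these genes are therefore not read here as levels of separate transfer RNAs. mt-Tp, the proline transfer RNA gene at the end of the coding part (MT:15356-15422), was highest, at 30.7 ± 1.80 CPM under Ang II (n = 4, SD) and 27.8 ± 3.10 CPM under saline (n = 3, SD), and its log2 fold change was 0.14 ± 0.11. mt-Tc, for cysteine, was at 11.2 ± 1.61 against 11.2 ± 1.53 CPM, and mt-Tn, for asparagine, at 10.8 ± 1.34 against 8.35 ± 3.29 CPM. At the other end mt-Tf, for phenylalanine, had 0 counts in every library. By counting error alone, 0 counts permit up to 0.210 CPM in the shallowest library. mt-Ts1 and mt-Td had 1 count each and mt-Tk 2 counts over all 7 libraries, and these 3 lie within the copied stretch. The stretch also holds mt-Tg (169 counts) and mt-Tr (158 counts). mt-Tf, mt-Tv (12 counts) and mt-Tt (13 counts) lie outside it, so low counts were not confined to the stretch.

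mt-Tl1 and mt-Te were the members with the smallest p, and their sequences are shown with the anticodon in capitals because they are the sole members whose groups did not overlap.
mt-Tl1: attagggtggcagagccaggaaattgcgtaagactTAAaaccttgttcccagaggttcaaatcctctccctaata
mt-Te: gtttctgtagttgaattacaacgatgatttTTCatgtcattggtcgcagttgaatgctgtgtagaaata
mt-Tl1 is a leucine transfer RNA gene of the heavy strand (MT:2676-2750), set between mt-Rnr2 and mt-Nd1. It had 180, 152, 245 and 138 counts with Ang II, while the saline libraries had 121, 95 and 79. The levels were 10.8 ± 3.20 CPM (n = 4, SD) and 6.33 ± 1.36 CPM (n = 3, SD). The log2 fold change was 0.77 ± 0.23 (SE), at an unadjusted p of 0.00461 and an edgeR adjusted p of 0.982. Each of the 4 Ang II values lay above each saline value, and the gene passed in the fit without a filter on low counts (adjusted p = 0.0465). The highest value was that of Ang II replicate 3, at 15.5 CPM against 8.33 to 10.2 CPM in the other 3 Ang II libraries. This library was also the highest for skeletal muscle markers and mt-Rnr2 and the lowest for mt-Co1, and without it the log2 fold change of mt-Tl1 was 0.56.

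The genes on either side of mt-Tl1 had log2 fold changes of -0.04 (mt-Nd1) and -0.03 (mt-Rnr2). Per 1000 counts of mt-Nd1, mt-Tl1 had 2.22, 2.26, 3.54 and 2.04 counts in Ang II and 1.72, 1.47 and 1.122 in saline. Per 1000 counts of mt-Rnr2 it had 9.03, 8.79, 10.2 and 6.65 in Ang II and 6.53, 4.81 and 3.83 in saline. The groups did not overlap on either scale, but Ang II replicate 4 and saline replicate 1 nearly touched on the second. Both ratios reuse the mt-Tl1 counts by which the gene was picked, over neighbours that hardly differed between groups. They are not separate support.

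mt-Te is the glutamate transfer RNA gene of the light strand (MT:14071-14139), set between mt-Nd6 and mt-Cytb. It had 68, 52, 93 and 69 counts in Ang II and 44, 12 and 35 in saline. The levels were 4.27 ± 1.15 CPM (n = 4, SD) and 1.90 ± 0.964 CPM (n = 3, SD). The log2 fold change was 1.15 ± 0.36 (SE), at an unadjusted p of 0.00564 and an edgeR adjusted p of 0.982. Per 1000 counts of mt-Nd6 it had 4.74, 3.97, 6.95 and 5.13 counts in Ang II and 3.73, 0.968 and 3.32 in saline, without overlap. This ratio too reuses the counts by which mt-Te was picked and is not separate support. The lowest value of mt-Te by far was that of saline replicate 2, and the log2 fold change without that library was 0.81. Ang II replicate 3 was highest here too, and without it the log2 fold change was 0.97. Pigment epithelium markers, whose share is given above, also did not overlap between the groups, and their part in the values of mt-Tl1 and mt-Te was not tested.

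Saline replicate 2 was also the lowest library for 4 other tested transfer RNA genes. mt-Tp was at 24.3 CPM there and at 28.3 to 32.7 CPM in the other 6 libraries. mt-Tn was at 4.56 CPM there and at 9.11 to 12.4 CPM elsewhere. mt-Ty, for tyrosine, was at 0.421 CPM there and at 1.42 to 2.35 CPM elsewhere. mt-Tg, for glycine, had 2 counts there and 21 to 35 elsewhere. Yet mt-Tc (11.8 CPM) and mt-Th (2.24 CPM) were within the range of the other libraries in saline replicate 2, so the low values did not extend to every transfer RNA gene. Without saline replicate 2 the log2 fold change was 0.0520 for mt-Tp and 0.0759 for mt-Tn.

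**Figure D5:**
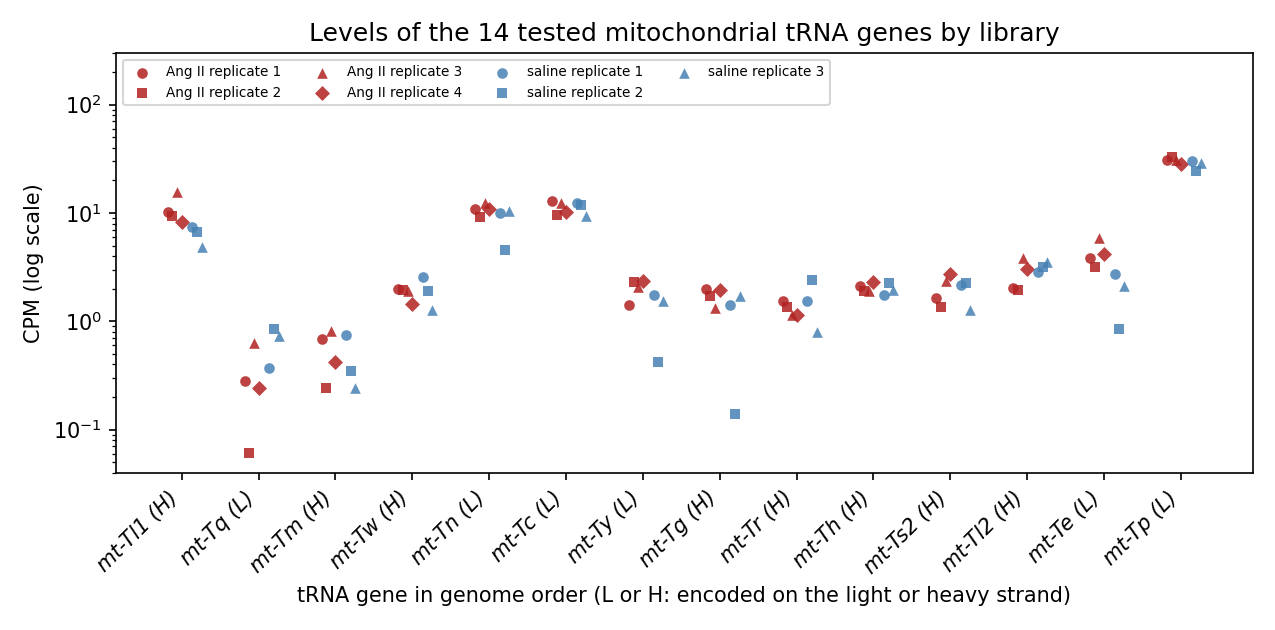
CPM of the 14 tested transfer RNA genes (y axis, log scale) in each library, in genome order (x axis), with the encoding strand in brackets. For mt-Tl1 and mt-Te the 4 Ang II libraries lie above the 3 saline ones, and saline replicate 2 (blue squares) lies lowest for mt-Tn, mt-Ty, mt-Tg, mt-Te and mt-Tp.

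Nuclear genes that serve the mitochondrial genome were described from lists of transcription, RNA processing, transfer RNA charging and biogenesis genes. Of 81 tested genes, 43 lay higher and 38 lower in Ang II, and 0 passed by edgeR (0% of all genes). At an unadjusted p under 0.05 there were 3 of 81, against 4.62% of all genes. The transcription and DNA maintenance list had a median log2 fold change of -0.01 over 18 genes. In it, the polymerase gene Polrmt was at 39.3 ± 1.37 against 43.3 ± 3.71 CPM (-0.14 ± 0.10) and the helicase gene Twnk at 16.3 ± 1.25 against 13.8 ± 3.59 CPM (0.24 ± 0.17).

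The RNA processing list had a median of 0.01 over 28 genes. It was led by Ptcd3, which encodes a protein of the small mitochondrial ribosomal subunit (0.20 ± 0.09), and Pde12, which encodes a phosphodiesterase that trims poly-A tails (0.27 ± 0.12). The transfer RNA charging and modification list had a median of -0.01 over 24 genes, led by the modification genes Gtpbp3 (-0.26 ± 0.14) and Trmu (0.38 ± 0.20). Among 11 biogenesis regulators the median was 0.06. The coactivator gene Pprc1 was at 19.8 ± 2.15 against 25.5 ± 3.50 CPM, with its log2 fold change at -0.37 ± 0.13, and Ppargc1b was at -0.24 ± 0.13. For each gene named from these 4 lists the edgeR adjusted p was 0.982.

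Most nuclear partners of the mitochondrial subunits had values below 0. Of 76 tested subunit genes of the 5 complexes, 22 had a log2 fold change above 0 and 54 below, where 48.9% of all tested genes were above 0. By edgeR 0 passed, and 5 of 76 had an unadjusted p under 0.05, beside 4.62% of all genes. The medians were -0.04 for complex I (36 genes), -0.04 for complex II (4 genes, none of them mitochondrial), -0.08 for complex III (9 genes), -0.11 for complex IV (11 genes) and -0.04 for the ATP synthase (16 genes). For comparison, the 12 tested mitochondrial coding genes had a median of -0.00, with 6 on either side of 0. The difference between nuclear and mitochondrial subunits was not tested.

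The nuclear subunit genes with the smallest p were all slightly lower in Ang II except Sdhd. In complex I, Ndufa7 was at 48.7 ± 2.22 against 56.2 ± 1.37 CPM (log2 fold change -0.21 ± 0.09) and Ndufa10 at 127 ± 6.89 against 144 ± 2.08 CPM (-0.18 ± 0.08). In complex II, Sdhc had a log2 fold change of -0.11 ± 0.08 and Sdhd of 0.11 ± 0.13. In complex III, Uqcrc1 had -0.18 ± 0.08 and Uqcrh -0.10 ± 0.08. In complex IV, Cox7c was at 65.0 ± 3.11 against 74.4 ± 4.22 CPM (-0.20 ± 0.09), and Cox6c had -0.17 ± 0.10. In the ATP synthase, the inhibitor gene Atpif1 had -0.27 ± 0.12, and the catalytic subunit gene Atp5b was at 910 ± 17.2 against 1027 ± 28.4 CPM (-0.17 ± 0.08). The edgeR adjusted p of each was 0.982, and rod markers, which took a share below the saline range in 3 of the 4 Ang II libraries, also had log2 fold changes below 0. Their part in these values was not tested.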

How the data were processed

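Poly-A selected RNA from 7 retina libraries was sequenced, and the authors deposited 1 table of whole-number read counts per gene. Tools and build come from the submitters' processing notes: CASAVA, HISAT2 2.0.5, featureCounts 1.5.0-p3 and mm10. The treatment of reads with several matches and the strand setting are not given in the sources used here. The gene length printed in the deposited table was used for levels per kb. Every per-library column was matched to a sample.

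The members are all 37 rows whose name starts with mt-. The members and gene lists were chosen with earlier results of these data known. The coding and ribosomal RNA genes were given in full, the transfer RNA genes by the 4 highest and 4 lowest mean shares, and nuclear lists by the 2 genes of smallest p. Further transfer RNA genes (mt-Te, mt-Ty, mt-Tg, mt-Th, mt-Tq, mt-Tw, mt-Tr, mt-Tv, mt-Tt), the copies Gm10222 and Gm13340 and the marker-share statements were chosen after their values were seen.

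Counts were fitted with edgeR 4.0.16 (filterByExpr, TMM scaling, robust quasi-likelihood test, R 4.3.3) on all 7 libraries, with Benjamini-Hochberg adjustment over 17078 genes. CPM values use TMM-scaled library sizes, and shares use plain totals. Copies were found by shared runs of 50 bases between GENCODE M21 transcripts, whose coordinates equal those of the table. The alternatives were DESeq2 1.42.0, limma 3.58.1 (voom), other scalings, no low-count filter, a replicate block and each library left out. On simulated counts for this comparison (16754 genes, 200 changed) the edgeR fit recovered 71% of genes changed by 1 on the log2 scale and 99% of those changed by 2, with 13 false calls among 183. The changed genes were drawn from those with a mean of at least 1 CPM, so these rates do not cover mt-Tq and mt-Tm, which lie below it. Each gene was drawn independently, without differences in neighbouring tissue between libraries, so the rates may not hold for these data.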

Additional observations from a re-analysis of the deposited data

Results flagged for a closer look

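mt-Tw, the tryptophan transfer RNA gene, was at 1.448 CPM in Ang II replicate 4, apart from the other 3 Ang II libraries, which lay between 1.90 and 1.98 CPM. The gap divided by the range of the group was 0.836, just past the limit of Dixon's test at the 95% level for 4 samples. Of 32 groups checked this was the 1 found, and chance alone marks about 1 group in 20. Saline replicate 3 was lower still, at 1.28 CPM.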

How the results depend on the processing

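The count of all genes called was 0 with edgeR and rose to 98 without the low-count filter, 32 with DESeq2, 142 with limma-voom and 57 with the replicate block. Leaving out 1 library gave 0 to 117 genes, with 117 without saline replicate 3. Among the mitochondrial genes, 2 were called without the low-count filter (mt-Atp6 and mt-Tl1) and 0 in every other alternative, the fits that leave out a library included. The cause was not tested.

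The difference in total mitochondrial share was 0.0412 percentage points over nuclear counts and 0.0391 with the copies added. It was -0.0291 to 0.107 percentage points with 1 library left out. The replicate block gave 0.0688, the same value as leaving out Ang II replicate 4, so for the share it is not a separate alternative. For the transfer RNA genes the difference in share was 0.00113 to 0.00190 percentage points with 1 library left out. Those groups did not overlap on plain totals, so leaving out 1 library could not turn the sign. On scaled library sizes they overlapped, as given above.

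Of 389 pairs of a tested gene and an alternative, 340 kept direction and side of the threshold, 2 passed it and 47 changed sign. With library size alone the log2 fold change turned to 0.0313 for mt-Rnr1, 0.0216 for mt-Rnr2, 0.00993 for mt-Nd1, 0.0120 for mt-Nd4l, 0.0288 for mt-Nd4 and 0.0352 for mt-Cytb. With limma-voom it turned to -0.49 for mt-Tm, -0.0157 for mt-Nd2, -0.13 for mt-Tc, 0.0631 for mt-Nd4 and -0.25 for mt-Ts2. With the replicate block it turned to 0.0698 for mt-Tw, -0.17 for mt-Co2, 0.00389 for mt-Nd4, -0.00235 for mt-Th, -0.0927 for mt-Ts2 and 0.00790 for mt-Cytb. The block rests on replicates 1 to 3, whose numbers did not pair the libraries (correlations of -0.0686, -0.0207 and 0.0463). With 1 library left out, signs changed within -0.0687 to 0.0865 for mt-Rnr1, -0.14 to 0.0424 for mt-Rnr2, -0.0206 to 0.86 for mt-Tm, -0.0589 to 0.0725 for mt-Nd2, -0.28 to 0.21 for mt-Tw, -0.0988 to 0.0799 for mt-Tc, -0.14 to 0.0222 for mt-Co1 and -0.19 to 0.22 for mt-Co2. The same held within -0.59 to 0.14 for mt-Tr, -0.19 to 0.12 for mt-Nd4l, -0.11 to 0.13 for mt-Nd4, -0.0324 to 0.15 for mt-Th, -0.13 to 0.24 for mt-Ts2, -0.0113 to 0.14 for mt-Nd5 and -0.0745 to 0.0430 for mt-Cytb. Log2 fold changes of mt-Tl1 (0.56 to 0.92) and mt-Te (0.81 to 1.497) stayed above 0. Their groups did not overlap, so leaving out 1 library could hardly turn the sign, and this adds no support. Over all alternatives, 12 members kept their direction and 16 changed it at least once. Counts of at most 14 per library limit the untested transfer RNA genes.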
